A study of Mus musculus with 6 samples.

Results

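The exonic circular RNAs (circRNAs) that had a deposited value above 0 in each of 6 mouse hippocampus libraries form a core of 769, out of 9524 exonic circRNAs and 10652 circRNAs in the whole table. They were chosen by those values, so their detection, abundance and rank are given as a description and carry no test. A circRNA is a closed ring made when the splicing machinery joins the end of an exon back to the start of the same or an earlier exon, which leaves a molecule with no free ends. Rings are resistant to exonucleases, and brain is known for holding many of them, often from long genes that act at synapses. Most have no known function, and the level of a ring need not follow the level or the function of the linear RNA of its host gene.

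The hippocampus came from adult male C57BL/6J mice, whose strain label reads C57BL/6, aged 8 to 10 weeks. Control (3 libraries) and chronic unpredictable stress (CUS, 3 libraries) were compared. The CUS schedule ran for 4 weeks and mixed stressors such as food or water deprivation for 24 h, restraint for 6 h, a tilted cage for 3 h and swimming at 8 °C for 5 min. No transgene, mutation or drug is named for either group. The labels call the samples independent, but they do not say that each is 1 mouse, so every p-value below measures the spread between these samples. Poly(A) RNA was selected in 2 rounds, a step that a ring without a poly(A) tail passes only in part, and how this shaped the core was not tested. In whole tissue, fewer cells of a type and less RNA per cell cannot be told apart.

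A level here is 10 to the deposited value, and a circRNA listed at 0 has level 0. In every library, 100% of the levels below 300 steps lay within 0.05 of a whole multiple of a step particular to that library, and the lowest level above 0 was 17 steps (41.0 to 50.1). The sources used here do not say what a step counts, so depth in reads is unknown. Relative depth, the inverse of the step, ran from 90.8% to 100% over Control libraries and from 81.9% to 89.8% over CUS libraries. Libraries held 4329 to 4606 circRNAs above 0 in Control and 3991 to 4273 in CUS. Neither relative depth nor this number overlapped between the groups, so both go together with CUS here. Their part in the group differences below was not tested. Of cell type markers, neuron markers gave circRNAs for 8 of 11 genes, with summed levels of 4173 to 11001 in Control and 8561 to 12450 in CUS. Dentate granule cell markers had a circRNA for 5 of 7 genes (2716 to 5738 and 4776 to 7494). CA pyramidal markers had a circRNA for 3 of 6 genes, and their sums did not overlap, at 3926 to 7742 in Control and 2627 to 3556 in CUS. Astrocyte markers had a circRNA for 4 of 9 genes (Gfap, Aqp4 and Slc1a3 had none), at 1085 to 1525 in Control and 1709.7 to 2642 in CUS, again without overlap. Oligodendrocyte markers had a circRNA for 7 of 11 genes (Mog, Mobp and Mal were among those with none), at 1593 to 2753 and 2721 to 3663. Interneuron markers had a circRNA for 4 of 9 (2144 to 4632 and 1938 to 7339.8), and vascular and choroid markers for 1 of 7 (0 to 176 and 0 to 233). No circRNA came from any of the 6 microglia or 4 oligodendrocyte precursor markers. Of all single circRNAs tested below, 5.78% had all CUS libraries above all Control libraries, and 5.08% had all of them below. Sums of several marker lists were looked at, so non-overlap of some is no measure of a change in cell types. The part of these cell types in the group differences below was not tested.

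The core was a small share of the exonic circRNAs and a large share of their level. Of the 9524 exonic circRNAs, 3251 (34.1%) were above 0 in 1 library, 2603 (27.3%) in 2, 1433 (15.0%) in 3, 800 (8.40%) in 4, 668 (7.01%) in 5 and 769 (8.07%) in all 6. The 769 members held 36.8%, 38.2% and 37.0% of the summed exonic level in the Control libraries, taken in order of replicate number, and 39.3%, 39.3% and 37.8% in the CUS libraries. The groups overlapped, since the CUS replicate 3 share was below that of Control replicate 2. Against 4231, 4173 and 3968 exonic circRNAs above 0 in Control and 3671, 3926 and 3941 in CUS, the members were 18.2% to 20.9% of those listed in a library. The mean level of a member over the 6 libraries had a median of 733 and a range of 129 to 7589. The other 8755 exonic circRNAs, zeros included, had a median mean level of 94.1 and a highest of 1198. Another 6 intronic and 29 intergenic circRNAs were also above 0 in all 6 libraries and are not members.

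**Figure D1:**
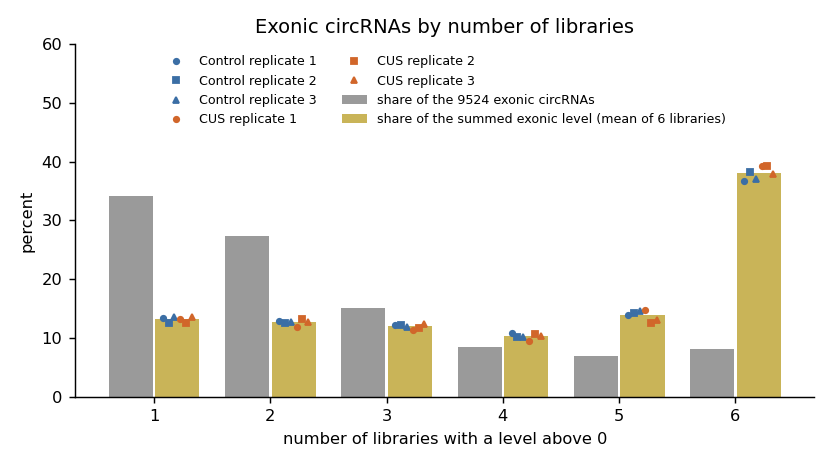
Exonic circRNAs by the number of libraries (x axis) in which they had a level above 0. Grey bars give the percent of the 9524 exonic circRNAs, gold bars the mean percent of the summed exonic level over 6 libraries, and points the 6 libraries; the 769 members at the right are 8.07% of the circRNAs and 36.8% to 39.3% of the level.

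The edge of the core was set by the lowest listed level. Of the members, 25 had a lowest library at 20 steps or fewer and 114 at 34 steps or fewer, so their place in the core rested on a level close to the lowest that any library lists. The 5 members nearest that edge came from Stxbp5, a tomosyn that restrains vesicle release, Bcl11b, a zinc finger transcription factor, Chordc1, a chaperone partner, Rabep1, an endosome tether, and Asph, an aspartate hydroxylase. The Stxbp5 ring, mmu_circRNA000867, was at 41, 199 and 98.4 in Control and at 271, 45.7 and 128 in CUS, with Control replicate 1 at 17 steps. The Asph ring, mmu_circRNA007094, had a lowest level of 45.4 in Control replicate 2 and reached 1117 in CUS replicate 3. Just outside stood exonic circRNAs with 1 library at 0 and a high mean. mmu_circRNA003508 of Mycbp2, a large ubiquitin ligase of axons, was at 599, 1076 and 1708 in Control and at 0, 1659.6 and 2144 in CUS. mmu_circRNA010360 of Birc2, an inhibitor of apoptosis, was at 0, 1319 and 723 in Control and at 1309, 2528 and 1299 in CUS. Those of Lrrn3, Lsm14a and Ndst3 each had 0 in 1 library as well, with mean levels of 1189.6, 1068 and 999.6. These circRNAs missed the rule while having means above the members' median.

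Host genes were named by the Ensembl identifiers of the table, and 749 of the 769 members had a resolved host. A single identifier stood beside 698 members. Of 71 members with several identifiers, 51 were given to their only protein-coding host and 20 stayed without a host. The members came from 574 hosts, of which 572 were in the gene annotation used (GENCODE vM21, build GRCm38). Positions in parentheses refer to host genes in GRCm38 coordinates, since the table gives no position for a circRNA itself. Among 3648 annotated hosts with any exonic circRNA, 572 (15.68%) had a member. Member hosts had a median length of 117 kb against 67.9 kb for the other 3076 hosts, a median of 15 against 14 exons in their longest transcript by exon number, and a median of 4 against 1 exonic circRNA. A host with more circRNAs had more chances to hold a member, so these values are a description of the rule's outcome.

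Protein-coding genes made up 96.5% of member hosts and 96.3% of the others. Pseudogene hosts had 8 members and hosts of the lincRNA, antisense, processed transcript or TEC classes had 12. A pair of the pseudogene members came from Nlrp5-ps, at a mean level of 1832 for mmu_circRNA009164 and 1356 for mmu_circRNA009162. Snhg14, the long RNA host of imprinted small nucleolar RNAs, gave mmu_circRNA009364, which was at 1622, 879.8 and 957 in Control and at 1659.6, 1415 and 2405 in CUS. Hosts with a single annotated exon had 10 members, although a ring of such a gene has no annotated splice junction to close it. They included Jund, Cdk5r2, an activator of the neuronal kinase Cdk5, and Gm44901, a locus of the TEC class, whose transcript awaits experimental support. Gm23543, a small nuclear RNA gene of 106 bases, was the only host listed for mmu_circRNA008828, which was at 968, 2549 and 1186 in Control and at 548, 253 and 1174 in CUS.

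The only microRNA gene among member hosts was Mir128-1 (chromosome 1, 128202361 to 128202430, plus strand), which lies inside a longer gene and is the sole identifier listed for mmu_circRNA000495. MiR-128 is an abundant neuronal microRNA, and its sequences are shown because this member is annotated to the hairpin alone. Capitals mark the seed, bases 2 to 8, in the 2 mature strands of 21 bases each given by RefSeq (GRCm38.p6), at chromosome 1, 128202404 to 128202424 for the 3p strand and 128202369 to 128202389 for the 5p strand.
mmu-miR-128-3p: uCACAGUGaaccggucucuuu
mmu-miR-128-1-5p: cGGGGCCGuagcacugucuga
The ring was at 686, 678 and 505 in Control and at 1368, 317 and 573 in CUS, with CUS replicate 1 highest and CUS replicate 2 lowest, so the groups overlapped. The 70 bases of the hairpin hold no annotated splice junction, and whether the ring contains these bases is not given in the table.

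By level per circRNA, uncorrected for the length of the ring, Tshz2 (chromosome 2, 169633013 to 170071816), a zinc finger transcription factor gene, led with mmu_circRNA006520, at 3959, 5007 and 11008 in Control and at 11674, 10097 and 3786 in CUS. The highest library was CUS replicate 1 and the lowest CUS replicate 3, so replicates of the same group spanned the whole range. Fat3 (chromosome 9, 15910189 to 16501285), an atypical cadherin gene, came next with mmu_circRNA010387, at 4618, 3597 and 5642 in Control and at 5393, 7791 and 4484 in CUS. It was the steadiest of these in rank, and its groups overlapped. Gm47283 (chromosome Y, 90784738 to 90816464), a predicted protein-coding gene, gave mmu_circRNA011363, at 3339, 3764 and 10889 in Control and at 6693, 3405 and 3189 in CUS. Control replicate 3 stood apart above the other libraries, and the table lists a further identifier for this circRNA. It is the only member assigned to chromosome Y.

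Grm5 (chromosome 7, 87584168 to 88134907) encodes metabotropic glutamate receptor 5, which couples synaptic glutamate to calcium release. Its mmu_circRNA009483 was at 4196, 8344 and 6527 in Control and at 2703, 3800.1 and 4803 in CUS, and CUS replicate 3 lay above Control replicate 1. Gm44901 (chromosome 7, 121052345 to 121056321) gave mmu_circRNA009645, at 6028, 4674 and 3237 in Control and at 2521, 3580.1 and 5618 in CUS, with no order by group. Tasp1 (chromosome 2, 139833480 to 140066805), a protease gene, gave mmu_circRNA006377, at 5023, 3340.4 and 4078 in Control and at 2397, 2706 and 4335 in CUS. Its highest library was Control replicate 1 and its lowest CUS replicate 1, and CUS replicate 3 lay inside the Control range. The circRNAs of Strbp, Fmn2 and Plcl2 completed the most abundant members and are given with the group differences.

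**Figure D2:**
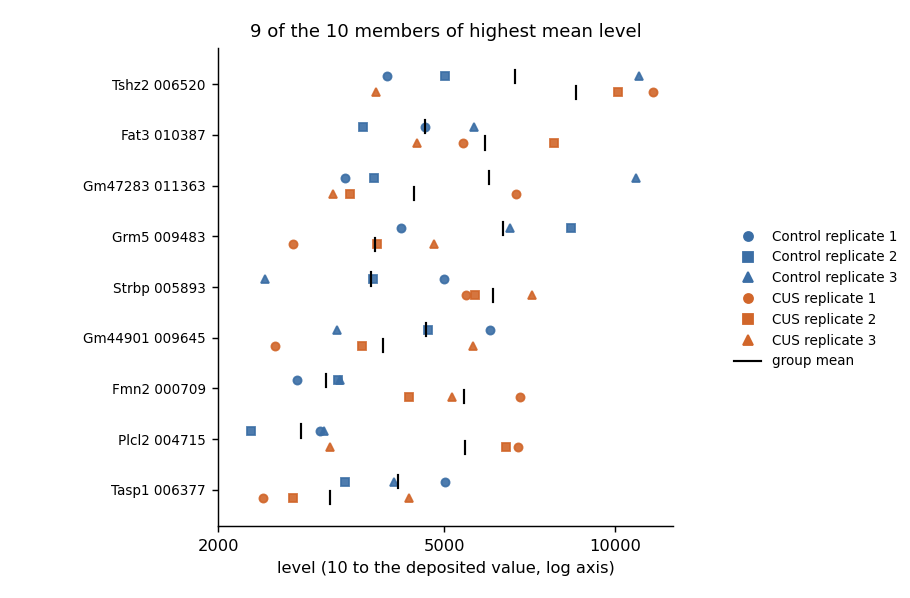
Levels of 9 of the 10 members of highest mean, on a log axis, with 1 point per library (blue Control, orange CUS; circle, square and triangle for replicates 1 to 3) and a bar at each group mean. The groups overlap for Tshz2, Fat3, Gm47283, Grm5, Gm44901 and Tasp1 and lie apart for Strbp, Fmn2 and Plcl2.

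Being listed in every library did not make a member's level alike in every library. The highest library was 5.28 times the lowest in the median member, with a range of 2.05 to 48.4 times. No member stayed within 2-fold over the 6 libraries, 110 (14.3%) stayed within 3-fold and 135 (17.6%) spanned 10-fold or more. The coefficient of variation over the 6 libraries had a median of 55.4%. With members split by mean level into 4 classes of nearly equal size, its median was 66.4%, 61.3%, 54.7% and 42.9% from the lowest class to the highest. The smallest, 22.9%, belonged to mmu_circRNA000680 of Mpzl1, a membrane glycoprotein of the myelin protein zero family, at 2803, 2602 and 1708 in Control and at 3125, 2479.7 and 3525 in CUS. The largest spread by ratio belonged to mmu_circRNA003660 of Ctnnd2, which is described with the group differences.

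Ranks among the 769 members agreed only in part between libraries. Over the 15 pairs of libraries, Spearman's rho across members had a median of 0.477 and ran from 0.391 to 0.530. Pairs within Control gave 0.477 to 0.530, pairs within CUS 0.446 to 0.530 and pairs between the groups 0.391 to 0.524, so pairs of the same group and of different groups overlapped. Pearson's r on log2 levels had a median of 0.470. These are descriptions across circRNAs of shared libraries, which are not independent replicates, and members share a lower limit on their level. Over all exonic circRNAs above 0 in both libraries of a pair, the median rho was 0.426 (0.383 to 0.445). For the 668 exonic circRNAs above 0 in exactly 5 libraries it was 0.222 (0.116 to 0.317). Each pair used only those of the 668 above 0 in both of its libraries, 410 to 489 circRNAs. For members above the members' median mean level, the median rho was 0.309. The lists of the 100 highest members in 2 libraries shared 42 to 55 circRNAs.

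No member was among the 10 highest in all 6 libraries, and 33 were among them in at least 1. Among the 50 highest in every library were 8 members, from Tshz2, Fat3, Gm47283, Grm5, Strbp, Gm44901, Fmn2 and Tasp1. Among the 100 highest in every library were 13, which added Plcl2, Tbcel, Brinp1, Tmem132d and 1 other. Fat3 ranked 2 to 11, Tshz2 1 to 13, Gm47283 2 to 26, Grm5 1 to 31 and Fmn2 2 to 35, the 5 smallest ranges among members above the median mean. Brinp1, a gene of the BMP/retinoic acid-inducible neural family, gave mmu_circRNA007278, at 2187, 1909 and 2141 in Control and at 3966, 4303 and 1929.8 in CUS, at ranks 8 to 91. Tbcel, a gene of tubulin folding, gave mmu_circRNA010497, at 1832, 3015 and 3423 in Control and at 3788, 2130.1 and 2748 in CUS, at ranks 12 to 90.

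The median member moved over 393 ranks between its best and its worst library. The 5 widest ranges among members above the median mean belonged to Ctnnd2 (ranks 44 to 767), Rhobtb3 (56 to 757), Setd2 (58 to 756), Rtn1 (62 to 757) and Garem1 (46 to 735). Rtn1, a reticulon of the endoplasmic reticulum, gave mmu_circRNA002424, at 654, 63 and 1178 in Control and at 949, 323 and 2267 in CUS, low in Control replicate 2 and high in CUS replicate 3. Garem1, an adaptor of growth factor signalling, gave mmu_circRNA004999, at 1284, 119 and 2325 in Control and at 1347, 463 and 843 in CUS, with a low and a high library both in Control. Over the same 4 classes of mean level, from lowest to highest, the median rank range was 357, 450.5, 463 and 306.5.

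**Figure D3:**
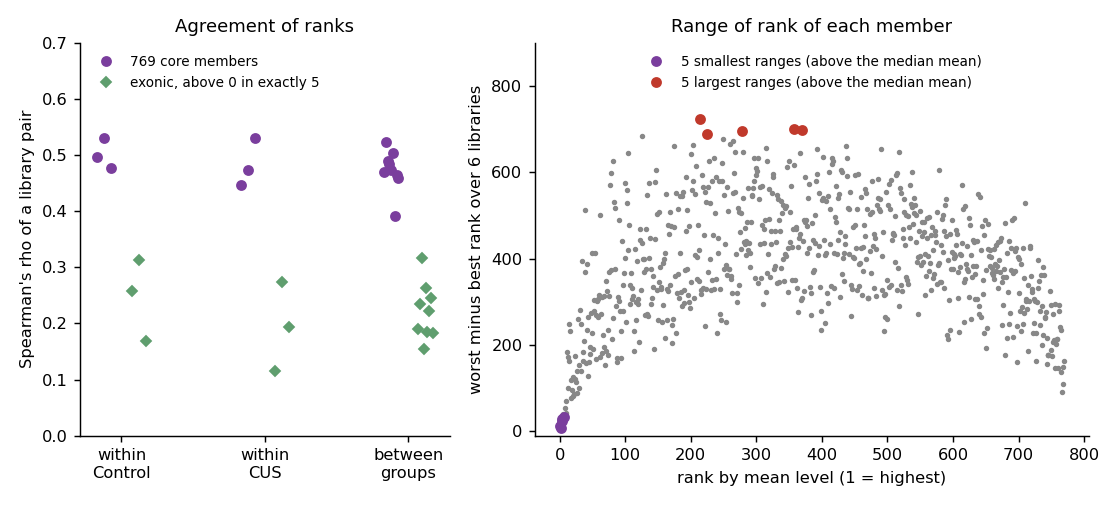
Left, Spearman's rho of levels for each pair of libraries within Control, within CUS and between groups, over the 769 members (purple circles). Green diamonds give the same for exonic circRNAs above 0 in exactly 5 libraries, using those above 0 in both libraries of a pair (410 to 489 of 668). Right, worst minus best rank of each member over 6 libraries against its rank by mean level; the 5 smallest ranges (9 to 33) are at the top of the order and the 5 largest (689 to 723) in its middle.

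A host could give several members, and 131 hosts gave 2 or more, 306 members in all. Most member hosts, 441, had 1 member, 98 had 2, 25 had 3, 6 had 4, 1 had 5 and 1 had 6. In 71 of the 131 hosts the fitted difference between CUS and Control went in both directions among members, and in 60 it went in 1 direction. The uncharacterised gene 2010300C02Rik (chromosome 1, 37611677 to 37720085) gave the 6, of its 18 exonic circRNAs. Among them mmu_circRNA000153, mmu_circRNA000154 and mmu_circRNA000155, had identical levels in every library, at 319, 618 and 348 in Control and at 380.3, 1041 and 715 in CUS. Another pair, mmu_circRNA000159 and mmu_circRNA000160, was identical as well, at 437, 469 and 487 in Control and at 1624, 1683 and 997 in CUS. Circles with identical or nearly identical values may not be counted apart by the authors' method, so 9 pairs of the same host that differed by at most 17 steps in every library, 15 members in all, are uncertain as separate circRNAs. The other such pairs came from Nalcn, Bptf, Atxn1, Dennd1b and Gm13483, and a set of 3 members with several host identifiers was identical as well.

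Zfp827 (chromosome 8, 79028437 to 79193766), a zinc finger gene, gave 5 members of 12 exonic circRNAs, and they were high and low in different libraries. Its mmu_circRNA010090 was at 1359, 1583 and 1375 in Control and at 2659, 151 and 1571 in CUS, lowest in CUS replicate 2. Its mmu_circRNA010091 was at 1081, 1674 and 1249.97 in Control and at 430.4, 2235 and 2457 in CUS, lowest in CUS replicate 1 and among its highest in CUS replicate 2. Atp9b, a P-type ATPase of the flippase family, gave 4 members of 11. Of these mmu_circRNA005296 was at 311, 625 and 684 in Control and at 1088, 1011 and 1059.99 in CUS, with the groups apart, while the other 3 overlapped. Atrnl1, an attractin-like membrane protein gene, gave 4 of 8, with mmu_circRNA005627 highest, at 1883, 1548 and 2122 in Control and at 2302, 1025 and 897 in CUS. Dgki, the gene of diacylglycerol kinase iota, gave 4 of 13, all with a higher fitted value in CUS. Eri3, Lrp1b and Strbp also gave 4 each, Lrp1b out of 29 exonic circRNAs.

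No member passed the test between CUS and Control. Levels were compared with limma on log2(level + 45.5) over all 3896 circRNAs above 0 in at least 3 libraries, and p-values were adjusted over all of them by Benjamini-Hochberg. A log2 difference below is the fitted CUS minus Control value on that scale. At adjusted p under 0.05, 0 of 769 members were called, beside 0% of all circRNAs tested, and no member had an adjusted p below 0.577. Unadjusted, 18 members (2.341%) had p under 0.05, beside 6.01% of all circRNAs tested. Of these, 12 had a higher fitted value in CUS, beside 2.75% of all tested, and 6 a lower one, beside 3.26%. The 18 come down to 17 when identical circRNAs are counted once. The background holds circRNAs at 0 in up to 3 libraries, while a member is at 0 in none. Members had the lower share in most fits. Their share was slightly higher with every circRNA of the table tested (2.08% against 1.61%) and without Control replicate 1 (3.25% against 3.05%). With only the 804 circRNAs above 0 in all 6 libraries tested, it was 4.16% against 3.98%. There the same 21 higher and 11 lower circRNAs were counted over 769 and over 804, so these 2 shares differ only by that number.

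The fitted differences of members lay close around 0. Their median log2 difference was 0.03, with quartiles of -0.52 and 0.53, against a median of -0.12 and quartiles of -0.93 and 0.76 over all tested. A higher fitted value in CUS was found for 397 members and a lower a circRNA for 372, beside 47.2% higher over all tested. A fitted difference of 2-fold or more was found for 132 members (17.2%) and for 1472 (47.1%) of the other 3127 tested. These others include circRNAs at 0 in up to 3 libraries, which the rule keeps out of the members. How far the rule made this contrast was not tested. In 57 members (7.412%) all 3 CUS libraries lay above all 3 Control libraries, beside 5.78% of all tested. In 30 members (3.901%) all 3 lay below, beside 5.08%. The standard error of a member's log2 difference had a median of 0.86, so a 2-fold difference in the typical member was about the size of its error.

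**Figure D4:**
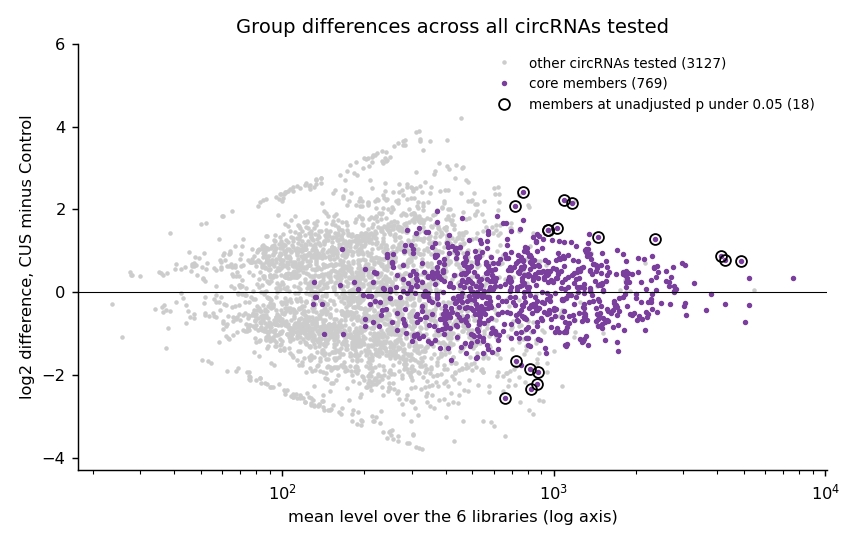
Fitted log2 difference (CUS minus Control) against mean level over the 6 libraries (log axis) for the 769 members (purple) and the other 3127 circRNAs tested (grey). Open circles mark the 18 members at an unadjusted p under 0.05; members span -2.55 to 2.42, and none passed the adjusted threshold.

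Among the members with a higher fitted value in CUS, that of Ubn2 had the smallest p. Ubn2 (chromosome 6, 38433950 to 38524825) encodes a subunit of a histone chaperone complex, and its mmu_circRNA008745 was at 229, 802 and 258 in Control and at 1064, 2531 and 2107 in CUS. All CUS libraries lay above all Control libraries, with a log2 difference of 2.15 (SE 0.74, unadjusted p = 0.00842, limma adjusted p = 0.577). The same host gave mmu_circRNA008736, at 2569, 1868 and 835 in Control and at 2385, 1579 and 3001 in CUS, and mmu_circRNA008731, at 809, 716 and 133 in Control and at 1678, 605 and 141 in CUS, whose groups overlapped. Ezh2 (chromosome 6, 47530139 to 47595341) encodes the methyltransferase of the Polycomb repressive complex, and its mmu_circRNA008779 was at 476, 207 and 95.8 in Control and at 1905, 974 and 649.7 in CUS, a log2 difference of 2.07 (SE 0.90). Its groups lay apart, with a wide spread inside each.

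Ryr2 (chromosome 13, 11553102 to 12106945) encodes the ryanodine receptor that releases calcium from the endoplasmic reticulum. Its mmu_circRNA002737 was at 1584, 2259 and 575 in Control and at 2618, 3456 and 3612 in CUS, a log2 difference of 1.29 (SE 0.53, limma adjusted p = 0.577). The more abundant mmu_circRNA002736 of the same gene was at 3049, 3305 and 1829.8 in Control and at 3116, 1654 and 3686 in CUS, with no difference by group beyond its spread. Ncam2 (chromosome 16, 81200697 to 81626828), a neural cell adhesion gene, gave mmu_circRNA004393, at 447, 668 and 1514 in Control and at 2214, 1759 and 2098 in CUS, and mmu_circRNA004391, at 1497, 852 and 1293 in Control and at 106, 1949.8 and 1016 in CUS. The former lay apart by group and the latter had both its highest and its lowest library in CUS.

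Rhobtb3 (chromosome 13, 75869537 to 75943925), an atypical small GTPase family gene, gave mmu_circRNA002958, at 239, 262 and 69.2 in Control and at 1256, 449 and 2357 in CUS, the largest log2 difference among members at 2.42 (SE 0.94). Ctnnd2 (chromosome 15, 30172593 to 31029341) encodes delta-catenin of the synaptic cadherin complex. Its mmu_circRNA003660 was at 661, 504 and 50.5 in Control and at 2447, 2256 and 622 in CUS, and the groups overlapped, since CUS replicate 3 lay below Control replicate 1. Ddn (chromosome 15, 98803777 to 98809490) encodes dendrin, a postsynaptic protein, and its mmu_circRNA003988 was at 435, 434 and 553 in Control and at 869.8, 2335 and 1519.5 in CUS, apart by group with a log2 difference of 1.54 (SE 0.71). The other 2 members of Ddn had 0.15 and -1.16 with overlapping groups. The identical pair of 2010300C02Rik given above was also apart by group, at 1.50 (SE 0.70).

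Among the most abundant members, those of Fmn2, Plcl2 and Strbp lay apart by group. Fmn2 (chromosome 1, 174501825 to 174822729) encodes a formin that assembles actin filaments in neurons, and its mmu_circRNA000709 was at 2749.8, 3255 and 3271 in Control and at 6798, 4330.1 and 5151 in CUS. The log2 difference was 0.78 (SE 0.36, unadjusted p = 0.0388, limma adjusted p = 0.731). Plcl2 (chromosome 17, 50509403 to 50688484), a gene of a phospholipase C-like protein without catalytic activity, gave mmu_circRNA004715, at 3019.9, 2282 and 3072 in Control and at 6755, 6425 and 3148 in CUS. CUS replicate 3 was only just above the highest Control library, and the log2 difference was 0.89 (SE 0.39, limma adjusted p = 0.656). Strbp (chromosome 2, 37483228 to 37703859) encodes a double-stranded RNA binding protein, and its mmu_circRNA005893 was at 5002, 3742 and 2418 in Control and at 5465, 5661 and 7130.2 in CUS, a log2 difference of 0.75 (SE 0.35). Another Strbp ring, mmu_circRNA005889, lay apart the other way, at 881, 764 and 2074 in Control and at 714, 339 and 465 in CUS, and 2 more overlapped.

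Among the members with a lower fitted value in CUS, that of Slc8a1 had the smallest p. Slc8a1 (chromosome 17, 81373105 to 81738377) encodes a sodium-calcium exchanger and is a well known source of brain and heart rings. Its mmu_circRNA004879 was at 1577, 1082 and 1561 in Control and at 318, 247 and 166 in CUS, a log2 difference of -2.34 (SE 0.80, unadjusted p = 0.00783, limma adjusted p = 0.577). All CUS libraries lay below all Control libraries. Its more abundant mmu_circRNA004878 was at 1197, 1046 and 3436 in Control and at 775, 2682 and 1857 in CUS and mmu_circRNA004875 was at 1209, 849.8 and 1056 in Control and at 589.7, 1732 and 1351 in CUS, and in both the groups overlapped. Irf2 (chromosome 8, 46739732 to 46847458), an interferon regulatory factor gene, gave mmu_circRNA009949, at 1398, 935 and 1162 in Control and at 142, 196 and 144 in CUS. This was the lowest log2 difference of any member, -2.55 (SE 0.89, limma adjusted p = 0.577).

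Tenm3 (chromosome 8, 48227682 to 48843951) encodes a teneurin that guides synaptic wiring in hippocampus and is 1 of the CA pyramidal markers. Its mmu_circRNA009967 was at 1258, 1727 and 1261 in Control and at 97.3, 315 and 533 in CUS, with a log2 difference of -2.22 (SE 0.82). The other Tenm3 members overlapped, with mmu_circRNA009963 at 782, 222 and 1564 in Control and at 392.1, 1143 and 699 in CUS, and mmu_circRNA009961 at 311, 547 and 1548 in Control and at 236, 51.1 and 440.4 in CUS. This member is itself part of the CA pyramidal sum that was lower in CUS, so that sum is no separate measure of it. Uimc1 (chromosome 13, 55027880 to 55100300) encodes a ubiquitin-binding protein of DNA repair. Its mmu_circRNA002855 was at 1448, 1374 and 1354 in Control and at 168, 366 and 554 in CUS, while mmu_circRNA002861 of the same gene lay apart the other way, at 266, 282 and 247 in Control and at 548, 672 and 598 in CUS. The log2 differences were -1.94 (SE 0.77) and 1.07 (SE 0.92).

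Jund (chromosome 8, 70698949 to 70700616), a single-exon gene of a JUN family transcription factor, gave mmu_circRNA010042, at 985, 1125 and 1253 in Control and at 280.1, 446 and 269 in CUS, a log2 difference of -1.65 (SE 0.79). Ankib1 (chromosome 5, 3690000 to 3802925), a ubiquitin ligase gene, gave mmu_circRNA007786, at 1545, 1129.5 and 944 in Control and at 969.8, 156 and 144 in CUS, and CUS replicate 1 lay inside the Control range. Mark3 (chromosome 12, 111574523 to 111656221), a microtubule affinity regulating kinase gene, gave mmu_circRNA002671, at 1436, 946 and 1697 in Control and at 522, 406 and 571 in CUS, apart by group at an unadjusted p of 0.0706. Tcf20, a transcriptional coregulator gene, gave mmu_circRNA003891, at 2259, 2594 and 1955 in Control and at 209, 2229 and 1052 in CUS, where CUS replicate 2 was inside the Control range. Setd2, a histone methyltransferase gene, gave mmu_circRNA010955, at 555, 749 and 2208 in Control and at 702, 75.3 and 266 in CUS, with overlap. Grm5, given above, completed the 10 at a log2 difference of -0.73 (SE 0.36, unadjusted p = 0.0541). Trps1, a GATA-type zinc finger repressor gene, was the only other host with members apart in both directions, mmu_circRNA003759 above and mmu_circRNA003758 and mmu_circRNA003760 below, and it was singled out after its values were seen.

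**Figure D5:**
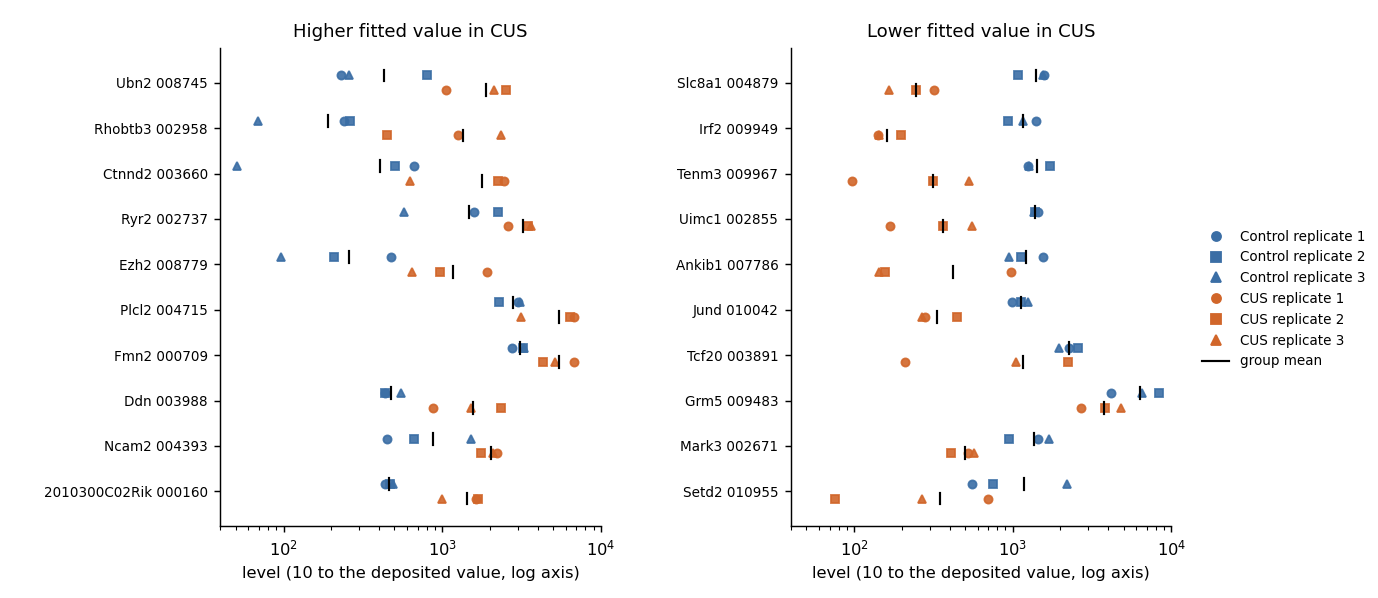
Levels (log axis) of the 10 members with a higher (left) and the 10 with a lower (right) fitted value in CUS of smallest unadjusted p, 1 point per library and a bar at each group mean; the circRNA identical to 2010300C02Rik 000160 is not drawn. The groups lie apart for all on the left but Ctnnd2 and for Slc8a1, Irf2, Tenm3, Uimc1, Jund and Mark3 on the right.

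Hosts were grouped by function in lists drawn up from general knowledge, but with earlier results of these data known. A host could stand in more than 1 list. Each list is described by how many of its hosts with an exonic circRNA had a member, beside 15.68% of all such hosts, and by its counts and median log2 difference, beside 397 higher and 372 lower members and the members' median of 0.03. A host with more circRNAs had more chances to hold a member, and the shares are not corrected for this. No list had a member past the adjusted threshold, beside 0% of all tested. Counts at an unadjusted p under 0.05 stand beside 18 of 769 members (2.341%) and 6.01% of all tested. In none of the fixed lists stood 429 members, which held 54.2% of the members' summed level. Levels, and so the ranks and orders of abundance given here, are per circRNA and not corrected for the length of a ring, which the table does not give.

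Presynaptic genes, which release transmitter, had members in 11 of 37 hosts (29.7%), 16 members with 6 higher and 10 lower fitted values and a median of -0.11. Sv2b, a synaptic vesicle glycoprotein gene, gave mmu_circRNA009436, at 2928, 2158 and 556 in Control and at 1763, 352 and 2517 in CUS. Dnm3, a dynamin gene of vesicle and membrane fission, gave mmu_circRNA000648, at 1181, 673 and 561 in Control and at 1895, 812 and 2759 in CUS. Both overlapped by group. Postsynaptic genes, which hold receptors and scaffolds, had members in 18 of 54 hosts (33.3%), 24 members with 11 higher and 13 lower and a median of -0.08. Shank3, a scaffold of excitatory synapses, gave mmu_circRNA003938, at 2943, 2569 and 944 in Control and at 1710.02, 3725 and 2429.96 in CUS, lowest in Control replicate 3. Dlg1, a scaffold for glutamate receptors, gave mmu_circRNA004208, at 3092, 1094 and 2856 in Control and at 631, 3343 and 2656 in CUS. Among GABA and monoamine genes, 1 of 14 hosts (7.14%) had a member, the serotonin receptor gene Htr4, whose mmu_circRNA005178 was at 246, 650.4 and 130.3 in Control and at 150.3, 91.5 and 247 in CUS. No member of these 3 lists had an unadjusted p under 0.05.

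Ion channel and calcium handling genes had members in 15 of 56 hosts (26.8%). Fitted values were higher in CUS for 8 of their 24 members and lower for 16, with a median of -0.15, and 1 in each direction (Ryr2 and Slc8a1) had an unadjusted p under 0.05. Atp2b4, a calcium pump of the plasma membrane, gave mmu_circRNA000529, at 1289, 3472 and 1617 in Control and at 448, 1753 and 2914 in CUS. Nalcn, the sodium leak channel, gave the nearly equal mmu_circRNA003564, at 1214, 1417 and 907 in Control and at 584, 371 and 394 in CUS, and mmu_circRNA003563, both apart by group, with a log2 difference of -1.31 (SE 0.74) for the former. Adhesion and axon guidance genes had members in 22 of 93 hosts (23.7%), 31 members with 16 higher and 15 lower and a median of 0.04. Epha6, an ephrin receptor gene, gave mmu_circRNA004348, at 2429, 2713 and 1162 in Control and at 2146, 2689.7 and 2533 in CUS, with 5 libraries close together and Control replicate 3 low. Dscam, an adhesion gene of neurite self-avoidance, gave mmu_circRNA004494, at 2185, 2029.5 and 2449.6 in Control and at 743, 1907 and 2362 in CUS. Ctnnd2, Ncam2 and Tenm3 were the 3 of this list at an unadjusted p under 0.05.

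Chromatin and transcription regulators were the hosts of 43 members, from 30 of 110 hosts (27.3%). Their fitted values were higher for 22 and lower for 21, with a median of 0.01, and Ubn2 and Ezh2 were the 2 at an unadjusted p under 0.05. Chd9, a chromatin remodeller, gave mmu_circRNA010182, at 2897, 3633 and 1199.5 in Control and at 1618, 3545 and 3063 in CUS. Rere, a corepressor of the atrophin family, gave mmu_circRNA007727, at 2532, 1694 and 1833 in Control and at 1742, 1299 and 4055 in CUS, highest in CUS replicate 3. DNA-binding transcription factors had members in 17 of 86 hosts (19.8%), 23 members with 14 higher and 9 lower and a median of 0.23, and Irf2 at an unadjusted p under 0.05. The list also counts Runx1t1, although it is a transcriptional corepressor gene. Its mmu_circRNA007106 was at 652, 3048 and 3955 in Control and at 1479.8, 2848 and 1777 in CUS. Foxn2, a forkhead gene, gave mmu_circRNA004915, at 1147, 1657 and 1564 in Control and at 2636, 2953 and 1089.9 in CUS. Genes named Zfp, a list added after the hosts were seen, had members in 14 of 57 hosts (24.6%), 10 higher and 8 lower. Zfp385b gave mmu_circRNA006106, at 1222, 6568 and 2431 in Control and at 3290.03, 2738 and 3428 in CUS, and Zfp148 gave mmu_circRNA004234, at 3146, 2849 and 3317 in Control and at 1026, 5008 and 2808 in CUS.

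RNA binding and splicing genes had members in 17 of 86 hosts (19.8%), 21 members with 10 higher and 11 lower and a median of -0.11. Cpsf6, a factor of messenger RNA cleavage and polyadenylation, gave mmu_circRNA001339, at 4191, 1777 and 1532 in Control and at 837, 2224 and 1824 in CUS, highest in Control replicate 1 and lowest in CUS replicate 1. Strbp was the only 1 of the list at an unadjusted p under 0.05. Ubiquitin and SUMO enzymes had members in 18 of 110 hosts (16.4%), close to the share of all hosts, and their 22 members had 10 higher and 12 lower values. The ubiquitin ligase gene Herc4 gave mmu_circRNA001095, at 1007, 2619 and 3583 in Control and at 3511, 2961 and 4142 in CUS, with Control replicate 1 apart below the others. Rnf169, a ubiquitin-binding protein of DNA damage sites, gave mmu_circRNA009560, at 1649, 3726 and 2612 in Control and at 3532, 3087 and 2068 in CUS, and Trim24, a ligase and corepressor, gave mmu_circRNA008723, at 2042, 2471 and 2894 in Control and at 4708, 1019 and 1721 in CUS.

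Kinases and phosphatases had members in 30 of 136 hosts (22.1%). Their 42 members had 25 higher and 17 lower fitted values and a median of 0.19, and none had an unadjusted p under 0.05. Prkce, protein kinase C epsilon, gave mmu_circRNA004909, at 2443, 4836 and 3694 in Control and at 3479, 2240.3 and 1721 in CUS. Pak7, a neuronal p21-activated kinase, gave mmu_circRNA006361, at 1731, 3449 and 2966 in Control and at 4414, 1748 and 2384 in CUS, and Ppp2r2c, a regulatory subunit of protein phosphatase 2A, gave mmu_circRNA008009, at 1731, 1425 and 1705 in Control and at 2497, 2996 and 742 in CUS. In all 3 the groups overlapped. Small GTPase and cytoskeleton genes were the largest list by members, 50 from 39 of 151 hosts (25.8%), with 24 higher and 26 lower values, a median of -0.08, and Fmn2 and Rhobtb3 at an unadjusted p under 0.05. Dennd1b, an exchange factor for Rab GTPases, gave mmu_circRNA000551, at 1149, 1719 and 2915 in Control and at 2679.8, 3053 and 2463 in CUS. Arhgap32, a GTPase activating protein of dendritic spines, gave mmu_circRNA010465, at 1386, 1702 and 1178 in Control and at 831, 1439 and 4654 in CUS, highest in CUS replicate 3 and lowest in CUS replicate 1. Cilia, centrosome and motor genes had members in 9 of 68 hosts (13.2%), below the share of all hosts, with 5 higher and 4 lower. Odf2, a centriole appendage gene, gave mmu_circRNA005800, at 4219.9, 1888 and 1692 in Control and at 1666, 2544 and 1149.7 in CUS.

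Genes of membrane traffic, lipids and endosomes had members in 18 of 99 hosts (18.2%), 25 members with 10 higher and 15 lower and a median of -0.12. Osbpl9, a sterol transfer protein gene, gave mmu_circRNA007482, at 2529.9, 1223 and 2035 in Control and at 2839, 2665 and 756 in CUS, and Abca8b, a transporter gene, gave mmu_circRNA002069, at 1637, 2844 and 1059 in Control and at 2824, 804 and 1663 in CUS. Plcl2 was its member at an unadjusted p under 0.05. Genes of glycan synthesis and modification, a list added after the hosts were seen, had members in 18 of 58 hosts (31.0%), 25 members with 10 higher and 15 lower and none at an unadjusted p under 0.05. Ndst3, a heparan sulfate sulfotransferase gene, gave mmu_circRNA006961, at 1999, 2267 and 3745 in Control and at 1769, 2103 and 1459 in CUS, highest in Control replicate 3. Chsy3, a chondroitin synthase gene, gave mmu_circRNA005165, at 999.5, 2241 and 2189 in Control and at 203, 1192 and 1193 in CUS, and Tusc3, a subunit of the oligosaccharyltransferase, gave mmu_circRNA009921, at 1289, 1092 and 891 in Control and at 560.1, 2106 and 1362 in CUS. Solute carriers named Slc, also added, had members in 6 of 54 hosts (11.1%), 4 higher and 5 lower, and Slc33a1 gave mmu_circRNA006706, at 567, 1999 and 619.7 in Control and at 1020.00, 718 and 101 in CUS.

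Genes known as hosts of brain circRNAs had the largest share of hosts with a member among the lists of function, 29 of 70 (41.4%). That list was drawn up from genes known for abundant rings, so the share follows from its making. Its 49 members had 25 higher and 24 lower fitted values, a median of 0.07, and 5 of 49 at an unadjusted p under 0.05, beside 2.341% of all members and 6.01% of all tested (Fmn2, Plcl2 and Ubn2 higher, Slc8a1 and Ankib1 lower). Their summed level was 61719, 58539 and 64409.9 in Control against 71290, 70854.6 and 67138 in CUS. These groups did not overlap. Of 18 lists of function, the sum of 1 other lay apart in the same direction, that of chromatin and transcription regulators. It was 32631 to 35112 in Control and 35276 to 40024 in CUS, and the sums of the other 16 overlapped. Of single circRNAs tested, 5.78% lay apart in this direction. The 2 lists share the members of Rere, Ubn2, Kat6b and Ncoa2, so they are not separate. The first sum includes the Fmn2, Plcl2 and Ubn2 rings given above, so it is no separate measure of them. The sum of chromatin and transcription regulators likewise includes the Ubn2 and Ezh2 rings, which were named for their small p. Its highest Control library (35112) lay just below its lowest CUS library (35276), so its separation is no separate measure of those rings either. Genes known from depression and stress research had members in 7 of 30 hosts (23.3%), 4 higher and 5 lower. Apart from Grm5, they included Dym, a Golgi protein gene, with mmu_circRNA005254 at 1818, 963 and 1527 in Control and at 551, 1076 and 1476 in CUS, and Ncoa2, a nuclear receptor coactivator gene, with mmu_circRNA000042 at 801, 688 and 1271 in Control and at 575, 1635 and 318 in CUS.

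Cell type markers gave few members in number. Neuron markers gave 5 members, from 4 of 8 hosts with an exonic circRNA (50%, beside 15.68% of all such hosts), of which Grin2b, a subunit of the NMDA receptor, gave mmu_circRNA009092, at 1412, 416 and 492 in Control and at 3187, 1845 and 647 in CUS, and mmu_circRNA009094, at 553, 340.4 and 867 in Control and at 407, 989.7 and 935 in CUS. Gria2, a subunit of the AMPA receptor, gave mmu_circRNA006752, at 289.7, 741 and 527 in Control and at 1268, 419.6 and 62.5 in CUS, highest and lowest in CUS. Dentate granule cell markers gave 2 members (2 of 5 hosts, 40%), from Cntnap5a and Dock10, both with a lower fitted value and overlapping groups. CA pyramidal markers gave the 3 of Tenm3 (1 of 3 hosts, 33.3%). Oligodendrocyte markers gave 2, from Edil3 and Plcl1 (2 of 7 hosts, 28.6%). The Edil3 ring, mmu_circRNA002988, was at 111, 489 and 327 in Control and at 908, 1280.3 and 769 in CUS, apart by group with a log2 difference of 1.68 (SE 0.87, unadjusted p = 0.0654), and the oligodendrocyte marker sum of the whole table, which includes it, was 1593 to 2753 in Control and 2721 to 3663 in CUS. No member came from an interneuron, astrocyte, microglia, oligodendrocyte precursor or vascular marker.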

How the data were processed

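Libraries from the hippocampus of Control (3) and CUS (3) mice were grouped by the labels. The authors deposited 1 table of log10 values per circRNA and library, with a class and Ensembl host identifiers, per the file headers. Stranded, paired-end libraries of poly(A) RNA carried molecular identifiers, per the labels' protocols. The build mm9 and the tools StringTie, DESeq and edgeR are named without a role in the submitters' processing notes, and the circRNA caller and the unit behind the log10 values are not given in the sources used here. Reads behind a value are unknown, so no counting interval is given.

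Levels are 10 to the deposited value. Hosts were matched by identifier to GENCODE vM21 (4467 of 4483 identifiers). Group differences were fitted on log2(level + 45.5) in R 4.3.3, with lmFit and a trended eBayes of limma 3.58.1. The pseudocount, the middle of the libraries' lowest levels above 0, understates differences of low circRNAs. The 3896 circRNAs above 0 in at least 3 libraries were fitted together, all 6 libraries sharing 1 estimate of spread, with Benjamini-Hochberg adjustment and a threshold of 0.05. The script was tested on simulated data with known changes. Their recovery was required only at almost no spread, so this checks the code and not what these libraries can detect. Summaries used scipy 1.17.1 and pandas 2.3.3 in Python 3.11.15, and figures matplotlib 3.10.9.

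The members and lists were chosen with earlier results of these data known. Named were the 10 members of highest mean (1 is not reported here), the 10 higher and 10 lower of smallest p, the 5 smallest and 5 largest rank ranges above the median mean, the 5 hosts with most members, the 3 most abundant and up to 2 at unadjusted p under 0.05 of each list, and the 5 just inside and outside the rule. Alternatives were another pseudocount, filter, scaling or variance model, a replicate block and leaving out each library.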

Additional observations from a re-analysis of the deposited data

How the results depend on the processing

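No circRNA passed the adjusted threshold under any of 14 alternatives, and the lowest adjusted p over all of them was 0.329. The 22 named log2 differences kept their direction in all 308 refits. They were chosen for small p in these same data. Another filter, variance model or block cannot change a fitted difference, so those refits had to give the same direction. The count is therefore no separate support for the differences. Counts of members at an unadjusted p under 0.05 depended on the fit. They were 21 higher and 11 lower with only circRNAs above 0 in all 6 libraries tested (804 circRNAs), and 2 higher and 3 lower without a variance trend, against 12 and 6. Leaving out 1 library gave 8 to 14 higher and 7 to 13 lower. The lower count was 13 without Control replicate 1, 11 without CUS replicate 1, 10 without CUS replicate 2 and 10 without CUS replicate 3. Log2 differences ran from -2.12 to -0.54 for Tcf20 and from 0.74 to 1.69 for Ryr2 over the alternatives. The members' median log2 difference ran from -0.03 to 0.07. Median rho fell to 0.309 over members above the median mean, and the core held 34.4% (Control) and 35.9% (CUS) of the level of all circRNAs in the table. These shares divide the same member sum by a larger total, with intronic and intergenic circRNAs added, so they had to be below the exonic shares. Why the other values moved was not tested.

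Deviations of samples with the same replicate number had correlations of -0.0109, -0.0252 and -0.0204 over all tested, and of -0.011, -0.0779 and 0.0185 over members. Those with different numbers were also near 0, at -0.0087 to 0.0293 over all tested and -0.0471 to 0.0554 over members. Values this small cannot show whether the numbers pair samples. With the replicate number as a block, 4 members were higher and 4 lower at an unadjusted p under 0.05. The 3 libraries a group, an unknown read depth and the spread inside groups limit what can be called, and rings listed at 0 are not shown to be absent.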
